A study of Mus musculus with 28 samples.

Results

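The response to low oxygen was compared between osteoblast and chondrocyte cultures of O9-1, a mouse cell line that originates in the neural crest of the head. The comparison used 14 of the 28 RNA sequencing libraries of the series, those of 4 groups: osteoblast and chondrocyte cultures, each at 21% O2 (normoxic, 4 libraries) and at 0.5% O2 (hypoxic, 3 libraries). The other 14 libraries came from proliferating and smooth muscle cultures. Osteoblast cultures were grown for 10 days in medium with 10% fetal calf serum, 100 ng/ml BMP-2, 0.1 µM dexamethasone and 10 mM beta-glycerophosphate. Chondrocyte cultures were grown for 3 days in that medium and then, as micromasses on Matrigel, for 7 days in medium with 5% serum, insulin-transferrin-selenium, 50 ng/ml BMP-2, 10 ng/ml TGF-beta3 and 0.1 µM dexamethasone. The cultures thus differed in serum, growth factors, mineralisation supplement and geometry as well as in lineage, and these cannot be told apart. All libraries came from 1 cell line, and the labels do not say whether replicates were separate cultures, so p-values measure only the spread between these samples, which may be technical.

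Cells meet low oxygen mainly through the hypoxia-inducible factors, transcription factors whose alpha subunits are hydroxylated and degraded when oxygen is present and accumulate when it is scarce. The stabilised factor pairs with ARNT and switches on genes of glucose uptake, glycolysis, angiogenesis and collagen modification. Growth plate cartilage is avascular and forms at low oxygen, whereas bone forms beside blood vessels.

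Library totals ranged from 23357645 to 34444072 counts. Levels below are counts per 1000000 scaled by library composition (CPM), listed in the order of replicates 1 to 3 or 1 to 4. Markers chosen for the labelled lineages were present but not complete. Summed over 9 chondrocyte markers, levels were 3137 to 9497 CPM in normoxic chondrocyte, 903 to 1376 in hypoxic chondrocyte, 187 to 1527 in normoxic osteoblast and 604 to 641 in hypoxic osteoblast cultures, with Matn1 and Snorc under 0.1 CPM in every group. The 9 osteoblast markers summed to 35940 to 44343 CPM in normoxic and 43265 to 50469 CPM in hypoxic chondrocyte cultures, above the 5670 to 9332 CPM and 8755 to 10980 CPM of the cultures labelled osteoblast. Most of that sum was Col1a1, a collagen of many connective tissue cells, with means of 38333 and 45659 CPM in normoxic and hypoxic chondrocyte and 6506 and 9729 CPM in osteoblast cultures. Mean levels of Ibsp, Sp7 and Alpl were also higher in chondrocyte cultures at both oxygen levels, whereas those of Runx2, Phex, Dmp1 and Bglap were higher there at 21% O2 and higher in osteoblast cultures at 0.5% O2. The labels are used below as names of the culture protocols. Bglap and Ifitm5, which mark mature osteoblasts, had means under 1 CPM in all 4 groups. Markers of endothelium and blood summed to at most 8.07 CPM in any library, with Tie1, Emcn, Cldn5, Tyrobp and Itgam at 0, and epithelial markers to at most 11.5 CPM. The 8 neuronal markers summed to 225 to 330 CPM in chondrocyte and 51.3 to 119 CPM in osteoblast cultures, mostly through Map2. Tubb3 and Stmn2 had means of 63.6 and 40.1 CPM in normoxic and 84.6 and 37.9 CPM in hypoxic chondrocyte cultures. In osteoblast cultures their means were at most 5.01 CPM. Osteoclast markers reached at most 15.9 CPM, with Ocstamp and Calcr at 0, and Schwann cell and melanocyte markers at most 60.3 CPM, with Sox10, Foxd3, Dct and Tyr at 0. One library stood apart. Replicate 4 of the normoxic osteoblast group lay above the other 3 by at least 1 log2 unit in 814 of 15199 genes and below them in 628, against at most 87 and 324 for each of the other 3. Where leaving it out changes a named gene's call given below, moves its difference by over 0.5 log2 units or moves the count of a gene list by over 1.5 times, the value without it is given too.

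The oxygen response is the log2 ratio of 0.5% over 21% O2 within a culture, and the difference is the osteoblast response minus the chondrocyte response, tested as 1 contrast in 1 fit. A gene is called where its Benjamini-Hochberg adjusted p in edgeR's quasi-likelihood test lay under 0.05. Of 15199 genes tested, 5750 (37.8%) were called in the difference, 3061 (20.1%) with a higher and 2689 (17.7%) with a lower response in osteoblast cultures. The difference was at least 1 log2 unit in size for 2464 of these (16.2% of genes tested). Osteoblast cultures changed 8535 genes (56.2%), 4328 up (28.5%) and 4207 down (27.7%), of which 3411 (22.4% of genes tested) changed by at least 1 log2 unit. Chondrocyte cultures changed 2649 genes (17.4%), 1347 up (8.86%) and 1302 down (8.57%), of which 896 (5.9% of genes tested) changed by at least 1 log2 unit. Without replicate 3 of the hypoxic chondrocyte group 1704 genes were called there. The median size of the response was 0.52 log2 units in osteoblast and 0.22 in chondrocyte cultures. Hypoxic and normoxic libraries did not overlap for 8596 genes (56.6%) in osteoblast and 4692 (30.9%) in chondrocyte cultures. Statements on overlap of single genes below stand against these shares. With library size as the only scaling, 46% of the genes called in the difference were higher, against 53.2% here, and the share of called genes that rose was 37.4% against 50.7% in osteoblast and 31.3% against 50.8% in chondrocyte cultures. That scaling moved the median of all genes from -0.02 to -0.19 in the osteoblast response, from 0.01 to -0.09 in the chondrocyte response and from -0.01 to -0.08 in the difference. In bulk RNA, fewer cells of a type and less RNA per cell cannot be told apart.

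Most of the 5750 genes belonged to an osteoblast response that had no called counterpart. The osteoblast response alone was called for 4103 of them (71.4%), and the chondrocyte response alone for 418 (7.27%). Both were called with the same sign and a larger size in osteoblast cultures for 568 genes, and with a larger size in chondrocyte cultures for 40. Opposite responses, called in both cultures, were found for 392 genes, of which 246 rose in osteoblast and fell in chondrocyte cultures and 146 did the reverse. Leaving out normoxic osteoblast replicate 4, the opposite responses numbered 774, and without replicate 3 of the hypoxic chondrocyte group they numbered 232. The remaining 229 genes were called in neither response. Both cultures shared a part of their response: of the 1869 genes called in both, 1477 (79%) had the same sign, and 869 of those were not called in the difference. Across all genes tested the responses correlated with Pearson's r = 0.34, a description over genes, which are not independent replicates.

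**Figure D1:**
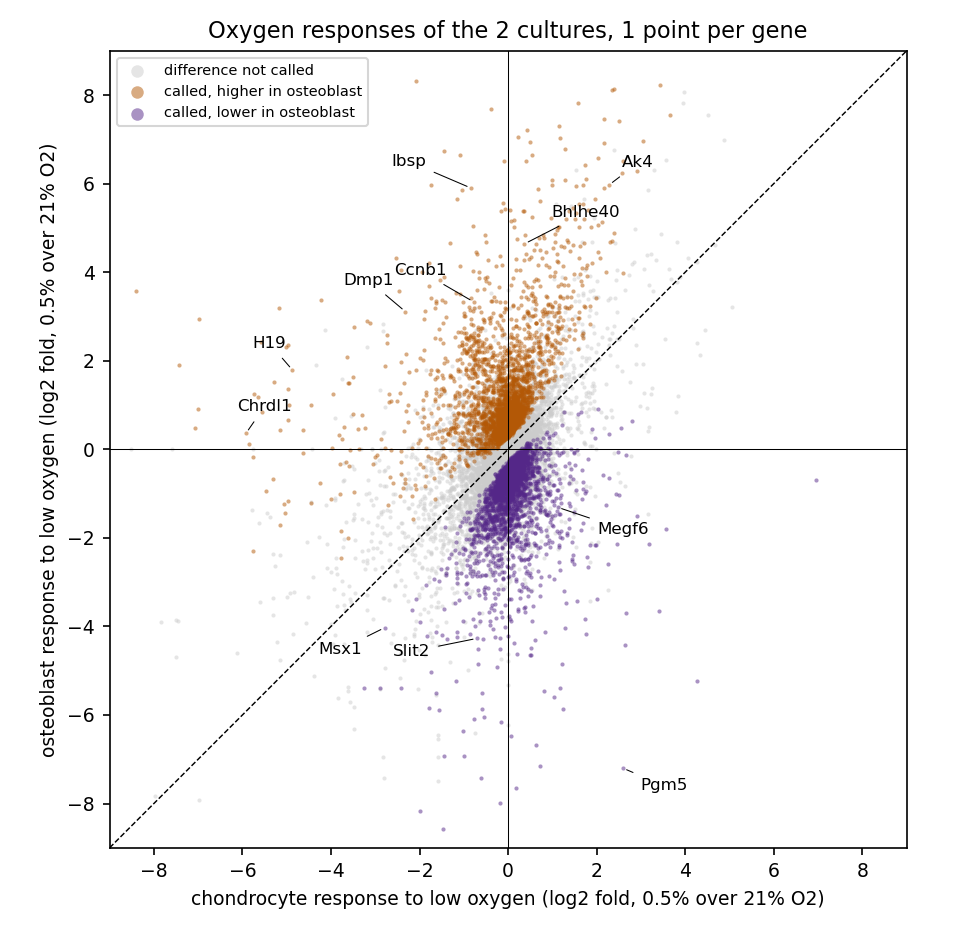
Each point is 1 of 15199 genes, with its log2 response to low oxygen in chondrocyte cultures on the x axis and in osteoblast cultures on the y axis, coloured by whether the difference was called. The dashed line marks equal responses, 4 genes lie outside the axes, and the cloud is taller than it is wide, with Ibsp, Ccnb1 and Dmp1 in the upper left quadrant and Megf6 and Pgm5 in the lower right.

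Grouped by process, and among the lists drawn in the plot of list medians, the widest gaps between the cultures were those of mitosis and of mineralisation, whose medians lay on opposite sides of 0. That order rests in part on replicate 4 of the normoxic osteoblast group. Without it the osteoblast and chondrocyte medians were 2.65 and -0.78 for mitosis and 1.70 and -1.32 for mineralisation. For cartilage matrix genes they were 0.29 and -3.09, a gap wider than that of mineralisation. The median of the differences was then 3.69 for cartilage matrix genes, against 3.50 for mitosis and 2.92 for mineralisation. Hypoxia-inducible factor targets and glycolysis had positive medians in both cultures with the larger one in osteoblast cultures, and sterol synthesis had negative medians in both. Genes of the contractile apparatus and of the endoplasmic reticulum had negative medians in osteoblast cultures and medians of 0.10 and 0.25 in chondrocyte cultures, or 0.00 and 0.15 with library size as the only scaling. That scaling turned the sign of the median difference for oxygen sensors, TGF-beta targets and ATF4 stress genes, all of which lay at 0.07. The lists were chosen with results of these data known, so their counts and medians describe the lists and are not a test.

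**Figure D2:**
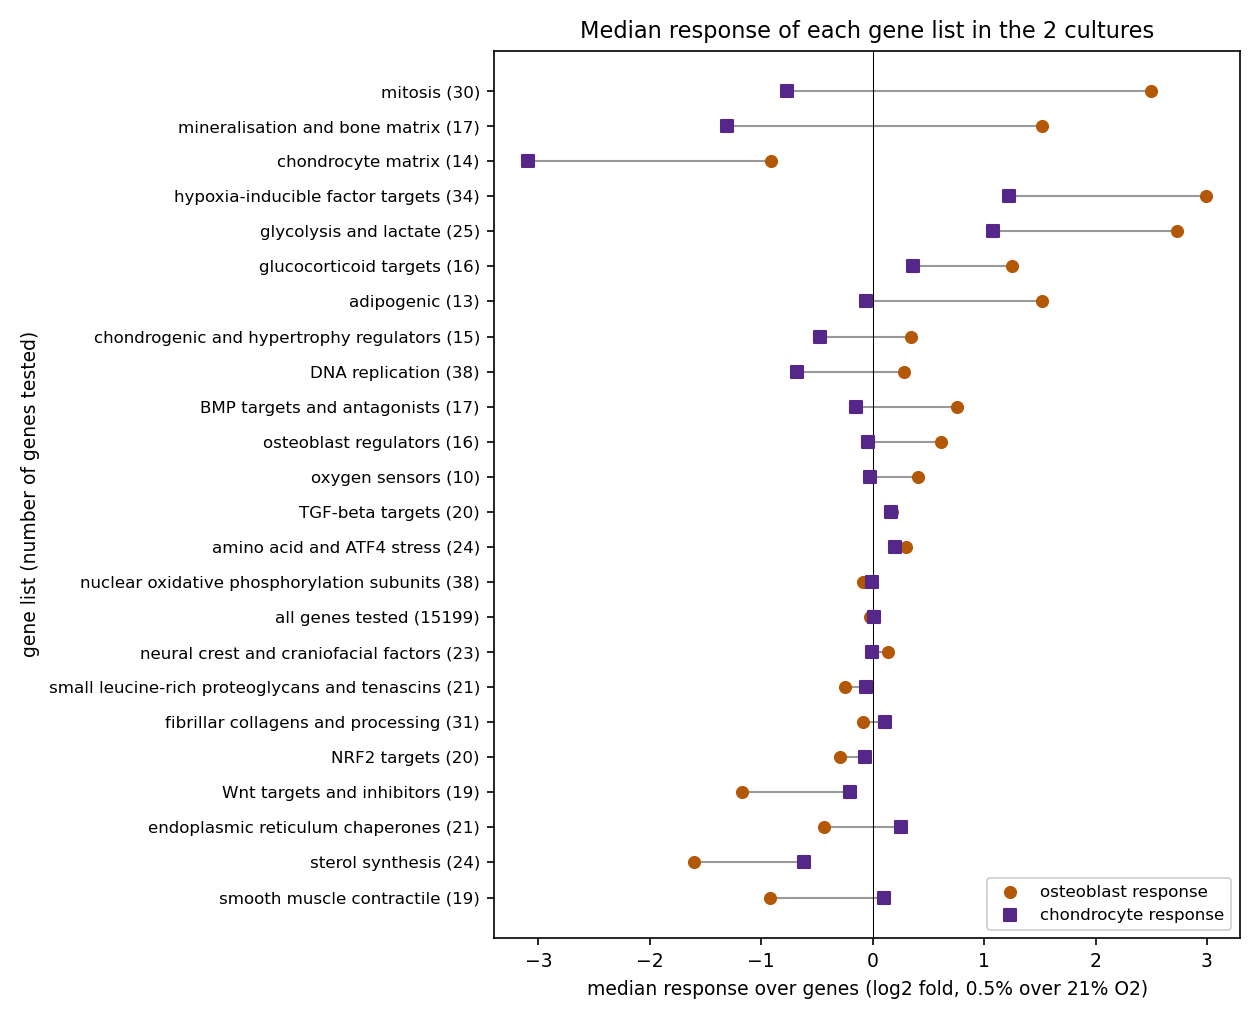
Median log2 response to low oxygen over the genes of each list, for osteoblast (circles) and chondrocyte (squares) cultures, with the number of genes tested in brackets. The median of the mitosis list was 2.50 in osteoblast and -0.77 in chondrocyte cultures, against -0.02 and 0.01 over all genes tested. Lists in which a tested gene had no count in a whole group are not drawn.

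Most targets of the hypoxia-inducible factors rose in each culture, and most had the higher response in osteoblast cultures. Of 34 genes tested of 36 listed, 27 had a higher and 0 a lower osteoblast response, against 20.1% and 17.7% of all genes, and 27 and 2 without replicate 4 of the normoxic osteoblast group. The osteoblast response was up for 31 and down for 0, against 28.5% and 27.7% of all genes, with a median of 2.99. In chondrocyte cultures the response was up for 26 and down for 1, against 8.86% and 8.57%, with a median of 1.22. The exception was Bhlhe41, a basic helix-loop-helix repressor, which rose by 1.63 in osteoblast and fell by 1.60 log2 units in chondrocyte cultures. The median difference was 1.65 log2 units, against -0.01 over all genes. Egln3, Lox, Cited2, Bnip3l and Mxi1 were among the 7 targets not called in the difference, and all of them except Lox in osteoblast cultures had called, higher responses in both.

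Factor binding sites hold a short core, ACGTG or GCGTG, and the stretch from 250 bases before to 50 bases after the first listed transcription start was searched for it on both strands. At least 1 match was found in 22 of 25 targets tested that had a promoter entry (88%) and in 18 of the 20 of these called in the difference (90%), against 62.9% of 10570 tested genes and 43.8% of all 32851 promoters listed. The promoters of Car12, the target with the largest difference, and Mxi1, the target with the smallest difference among those higher in both cultures, held no match. Among 3 other targets chosen after their values were seen, that of Vegfa held no match either, and those of Ak4 and Higd1a, shown for contrast, held 2 and 3. Matches are in capitals, 5′ to 3′, with the sequences and the GRCm38.p6 positions from RefSeq.
Car12, chr9:66713436-66713735 (plus strand): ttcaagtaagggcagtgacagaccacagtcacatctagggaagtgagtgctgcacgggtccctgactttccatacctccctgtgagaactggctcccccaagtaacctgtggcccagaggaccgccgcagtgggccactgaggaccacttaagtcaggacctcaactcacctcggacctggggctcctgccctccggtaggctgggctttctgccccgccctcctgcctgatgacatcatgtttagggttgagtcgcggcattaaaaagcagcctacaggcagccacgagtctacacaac
Mxi1, chr19:53310256-53310555 (plus strand): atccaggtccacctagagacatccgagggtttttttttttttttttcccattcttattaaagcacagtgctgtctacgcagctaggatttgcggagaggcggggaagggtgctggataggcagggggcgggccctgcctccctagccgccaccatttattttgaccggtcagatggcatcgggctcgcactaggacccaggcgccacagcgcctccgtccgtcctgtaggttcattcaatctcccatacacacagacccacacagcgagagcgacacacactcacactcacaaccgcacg
Ak4, chr4:101419039-101419338 (plus strand): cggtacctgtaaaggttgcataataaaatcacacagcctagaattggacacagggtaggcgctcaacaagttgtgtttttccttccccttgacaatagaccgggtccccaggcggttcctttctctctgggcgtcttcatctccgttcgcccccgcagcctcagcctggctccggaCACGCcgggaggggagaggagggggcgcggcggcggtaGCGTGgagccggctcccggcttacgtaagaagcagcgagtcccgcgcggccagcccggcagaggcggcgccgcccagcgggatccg
Higd1a, chr9:121857747-121858046 (minus strand): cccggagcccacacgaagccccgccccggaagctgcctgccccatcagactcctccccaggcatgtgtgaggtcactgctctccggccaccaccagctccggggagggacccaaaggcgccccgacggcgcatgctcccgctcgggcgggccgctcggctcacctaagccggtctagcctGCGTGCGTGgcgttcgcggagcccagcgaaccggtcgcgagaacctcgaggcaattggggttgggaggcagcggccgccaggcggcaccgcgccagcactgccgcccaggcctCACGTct
A match is a stretch of letters and not a measured binding site. In Higd1a a pair of GCGTG cores overlap, and they are counted as 2.

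Ak4 (ENSMUSG00000028527, chr4:101419277-101466995) encodes a mitochondrial adenylate kinase, with its position here and below from GENCODE M21 on mm10. It was at 0.485, 0.744, 0.47 and 0.634 CPM in normoxic and 40.8, 36 and 32.7 CPM in hypoxic osteoblast cultures. In chondrocyte cultures it was at 14.4, 17.2, 16.1 and 13.2 CPM at 21% O2 and 78.3, 72.8 and 71.4 CPM at 0.5% O2. The groups did not overlap in either culture, and normoxic osteoblast cultures were the lowest by far. In osteoblast cultures the response was 5.97 (SE 0.15, edgeR adjusted p = 4.15e-13), the chondrocyte response 2.28 (SE 0.11, edgeR adjusted p = 3.76e-09) and the difference 3.68 (SE 0.19, edgeR adjusted p = 5.22e-09).

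Vegfa, the main angiogenic growth factor, was at 40, 38.5, 41 and 32.5 CPM in normoxic and 288, 301 and 256 CPM in hypoxic osteoblast cultures. Chondrocyte cultures held 223, 224, 217 and 229 CPM at 21% O2 and 459, 492 and 509 CPM at 0.5% O2. Hypoxic osteoblast cultures thus reached a level only slightly above that of normoxic chondrocyte cultures. Its difference was 1.76 (SE 0.12, edgeR adjusted p = 6.68e-08), from responses of 2.89 and 1.12, both called.

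Bhlhe40, a repressor of the circadian and hypoxic programmes, was at 23.8, 23.1, 24.5 and 15.3 CPM in normoxic and 487, 560 and 576 CPM in hypoxic osteoblast cultures. In chondrocyte cultures the values were 142, 158, 176 and 173 CPM at 21% O2 and 276, 175 and 177 CPM at 0.5% O2. The chondrocyte groups overlapped, with hypoxic replicate 2 within the normoxic range and replicate 3 just above it. Its response in osteoblast cultures was 4.64 (SE 0.19, edgeR adjusted p = 1.52e-10), the chondrocyte response 0.37 (SE 0.17, edgeR adjusted p = 0.163) and the difference 4.27 (SE 0.25, edgeR adjusted p = 3.96e-08).

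Higd1a, a mitochondrial inner membrane protein induced by low oxygen, rose from 22.1 ± 2.33 (SD, n = 4) to 240 ± 6.36 CPM (n = 3) in osteoblast and from 80.7 ± 18.2 to 183 ± 11.5 CPM in chondrocyte cultures, a difference of 2.26 (SE 0.19, edgeR adjusted p = 4.55e-07). Car12, a membrane carbonic anhydrase, had means of 0.187 and 39.7 CPM in normoxic and hypoxic osteoblast cultures and of 120 and 91.9 CPM in chondrocyte cultures. Its osteoblast response of 7.68 was called and its chondrocyte response of -0.39 was not (edgeR adjusted p = 0.483). Bnip3, a mitophagy receptor, differed by 2.70, Pfkfb3, a kinase that drives glycolytic flux, by 2.93, and Slc2a1, the main glucose transporter, by 2.03 log2 units, all called. These 3, named for their roles after their values were seen, rose in both cultures.

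Most glycolytic genes had higher osteoblast responses too. Of 25 tested, 18 had a higher and 0 a lower osteoblast response, against 20.1% and 17.7% of all genes. In osteoblast cultures 22 rose and 1 fell, against 28.5% and 27.7% of all genes, with a median of 2.73. In chondrocyte cultures 17 rose and 1 fell, against 8.86% and 8.57%, with a median of 1.08. The gene that fell in both was Ldhb, the lactate dehydrogenase subunit not induced by low oxygen, by 0.65 and 0.64 log2 units. Gapdh and Aldoa were listed at means of at most 302 and 2.45 CPM, and since both have near-identical processed copies in the genome their counts are uncertain.

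Hk2, the inducible hexokinase that starts glycolysis, was at 13.4, 15.2, 14.6 and 11.9 CPM in normoxic and 334, 336 and 315 CPM in hypoxic osteoblast cultures. Chondrocyte cultures held 59.9, 76.9, 75.5 and 77.3 CPM at 21% O2 and 205, 154 and 139 CPM at 0.5% O2. The 4 groups did not overlap, with hypoxic osteoblast cultures highest. Its difference was 3.38 (SE 0.18, edgeR adjusted p = 6.46e-09), from responses of 4.58 and 1.20. Pfkl, liver-type phosphofructokinase, differed by 1.83 (SE 0.15, edgeR adjusted p = 2.52e-07). Tpi1, triosephosphate isomerase, differed by 1.66 (SE 0.14, edgeR adjusted p = 3.57e-07), and Eno1, enolase 1, by 1.99 (SE 0.19, edgeR adjusted p = 1.64e-06). For Pfkl, Tpi1 and Eno1 the hypoxic means lay closer together than the normoxic ones: Tpi1, for example, was at 167 and 534 CPM at 21% O2 and at 1255 and 1267 CPM at 0.5% O2 in osteoblast and chondrocyte cultures.

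Starting levels therefore differed between the cultures. At 21% O2 the mean level in osteoblast cultures was below that in chondrocyte cultures for 27 of 34 factor targets, with a median gap of -1.59 log2 units. At 0.5% O2 it was below for 14 of 34, with a median gap of 0.29. For glycolysis the osteoblast mean was below for 21 of 25 genes at 21% O2 (median -1.24) and for 14 of 25 at 0.5% O2 (median -0.02). The normoxic libraries enter both the starting level and the response, so these gaps restate the responses from the side of the levels.

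**Figure D3:**
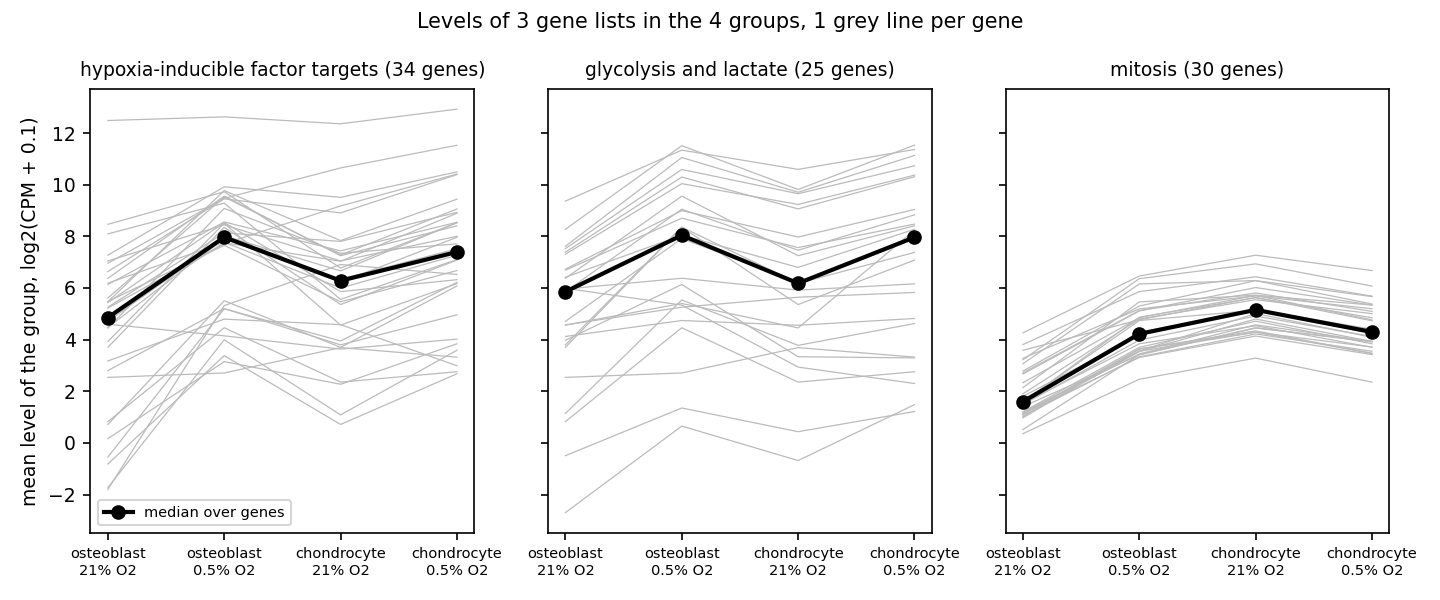
Mean level of each gene (grey) and median over genes (black) in the 4 groups for factor targets, glycolysis and mitosis, on the scale log2(CPM + 0.1). The median of all 3 lists is lowest in normoxic osteoblast cultures, and the mitosis median is highest in normoxic chondrocyte cultures.

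Genes of the oxygen sensor itself were called in the difference at about the share of all genes, 40% against 37.8%. Of 10 tested, 3 had a higher and 1 a lower osteoblast response, and 3 and 2 without replicate 4 of the normoxic osteoblast group. Hif1a, which encodes the main oxygen-regulated subunit, was at 245, 249, 246 and 252 CPM in normoxic and 381, 381 and 409 CPM in hypoxic osteoblast cultures. Chondrocyte cultures held 185, 208, 235 and 289 CPM at 21% O2 and 224, 212 and 200 CPM at 0.5% O2. The osteoblast groups did not overlap, as for 56.6% of all genes, and the chondrocyte groups did. The osteoblast response was 0.65 (SE 0.11, edgeR adjusted p = 0.000129), the chondrocyte response -0.11 (SE 0.11, edgeR adjusted p = 0.543) and the difference 0.77 (SE 0.16, edgeR adjusted p = 0.00143). Arnt, its partner subunit, had a difference of 0.72 (SE 0.14, edgeR adjusted p = 0.000942) from responses of 0.59, called, and -0.13, not called. Egln1, the prolyl hydroxylase that marks the alpha subunit for degradation, rose in both cultures, by 2.42 and 1.11, with a difference of 1.32 (SE 0.23, edgeR adjusted p = 0.000462). Hif1an, the asparaginyl hydroxylase, had a difference of -0.36 (SE 0.13, edgeR adjusted p = 0.0344), a call that was lost with all 28 samples, with the replicate block, and without hypoxic chondrocyte replicate 1 or 3, hypoxic osteoblast replicate 2 or 3, normoxic chondrocyte replicate 1 or normoxic osteoblast replicate 1 or 3 (edgeR adjusted p = 0.0553 to 0.0947). Epas1, which encodes the second alpha subunit, stayed at or under 2 CPM in every library, and its difference of 0.33 (SE 1.25, edgeR adjusted p = 0.859) was not called.

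**Figure D4:**
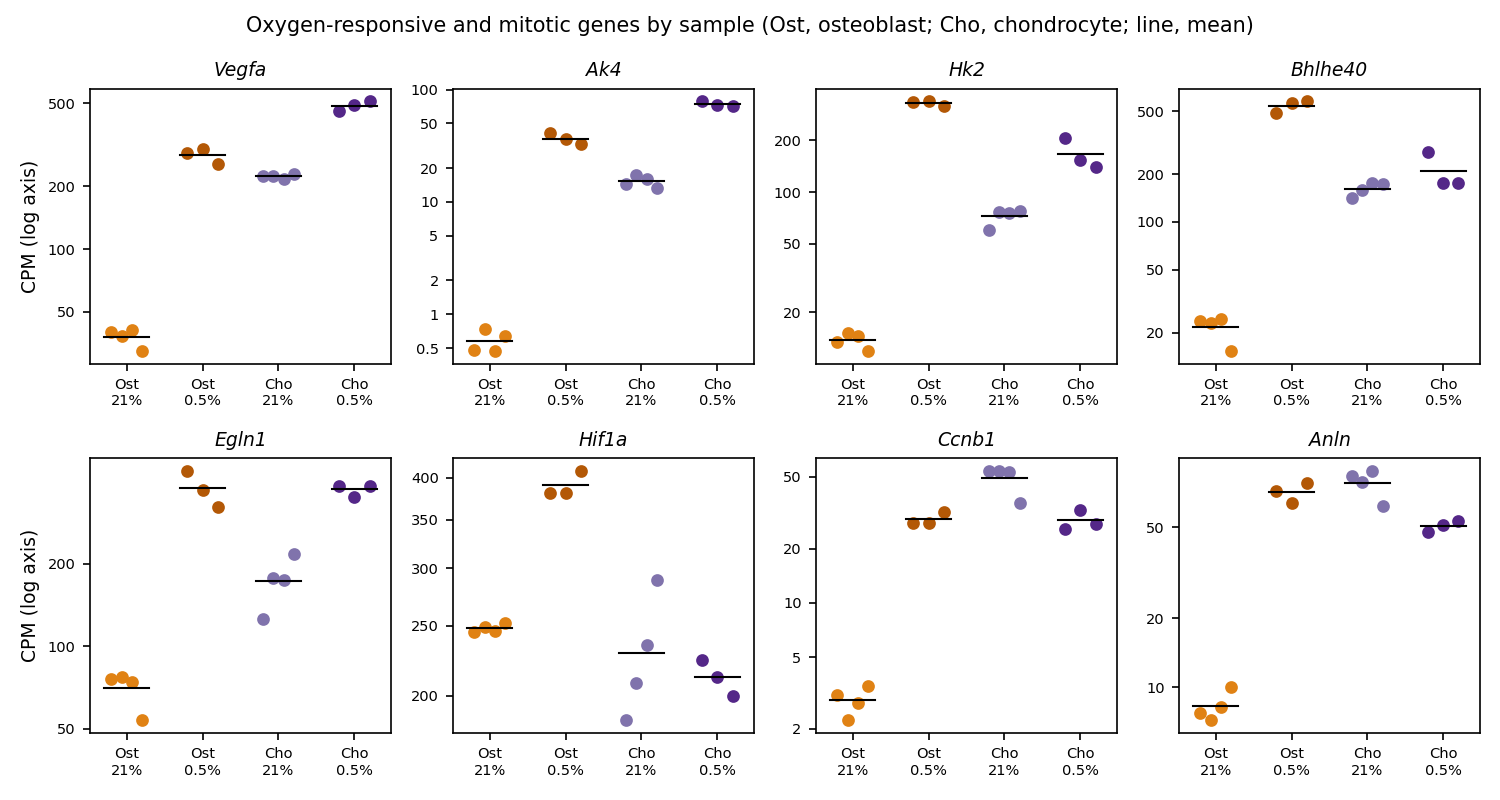
Level of 8 genes in each library, in CPM on a log axis, with a line at the mean of each group. Vegfa, Ak4, Hk2, Bhlhe40 and Egln1 are lowest in normoxic osteoblast cultures, and Ccnb1 and Anln rise with low oxygen in osteoblast and fall in chondrocyte cultures.

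Most mitotic genes, 22 of 30 tested, rose in osteoblast and fell in chondrocyte cultures. All 30 genes tested had a higher osteoblast response, against 20.1% of all genes, with a median difference of 3.34 log2 units. In osteoblast cultures 30 rose, against 28.5% of all genes, with a median of 2.50. In chondrocyte cultures 22 fell and 0 rose, against 8.57% and 8.86%, with a median of -0.77. Their level at 21% O2 was lower in osteoblast than in chondrocyte cultures for all 30 genes, with a median gap of -3.36 log2 units, and at 0.5% O2 it was lower for 17 of 30, with a median gap of -0.07. Cell numbers were not part of the files used.

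Ccnb1, the cyclin that drives entry into mitosis, was at 3.08, 2.23, 2.78 and 3.46 CPM in normoxic and 27.7, 27.7 and 32 CPM in hypoxic osteoblast cultures. Chondrocyte cultures held 54, 53.8, 53.1 and 35.8 CPM at 21% O2 and 25.8, 32.6 and 27.4 CPM at 0.5% O2. All hypoxic osteoblast libraries were above the normoxic ones, and all hypoxic chondrocyte libraries were below theirs. In osteoblast cultures the response was 3.33 (SE 0.16, edgeR adjusted p = 2.69e-10), the chondrocyte response -0.78 (SE 0.15, edgeR adjusted p = 0.00172) and the difference 4.11 (SE 0.22, edgeR adjusted p = 6.46e-09). Anln, the actin-binding anillin of the cleavage furrow, was at 7.75, 7.17, 8.18 and 10 CPM in normoxic and 71.6, 63.8 and 78.1 CPM in hypoxic osteoblast cultures. Its chondrocyte values were 83.4, 78.4, 88.1 and 61.9 CPM at 21% O2 and 47.6, 51.2 and 53 CPM at 0.5% O2. Neither pair of groups overlapped, and the difference was 3.72 (SE 0.18, edgeR adjusted p = 3.32e-09). Cenpf and Knl1, kinetochore proteins, differed by 3.73 (SE 0.20, edgeR adjusted p = 5.22e-09) and 3.42 (SE 0.20, edgeR adjusted p = 1.29e-08).

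DNA replication genes mostly had higher osteoblast responses as well. Of 38 tested, 25 had a higher and 1 a lower osteoblast response, against 20.1% and 17.7% of all genes. Without replicate 4 of the normoxic osteoblast group the counts were 33 and 1. Osteoblast cultures raised 12, about the share of all genes (28.5%), and lowered 3, against 27.7%, with a median of 0.28. Chondrocyte cultures lowered 22 and raised 0, against 8.57% and 8.86% of all genes, with a median of -0.68. Rrm1, the large subunit of ribonucleotide reductase, was at 166, 155, 164 and 188 CPM in normoxic and 329, 322 and 334 CPM in hypoxic osteoblast cultures. In chondrocyte cultures it was at 122, 121, 134 and 94 CPM at 21% O2 and 93.8, 80 and 78.8 CPM at 0.5% O2. Hypoxic osteoblast cultures were the highest of the 4 groups, and the chondrocyte groups lay close to each other without overlap. The difference was 1.45 (SE 0.15, edgeR adjusted p = 3.67e-06). Cdt1, which licenses replication origins, differed by 2.89 (SE 0.39, edgeR adjusted p = 9.01e-05), Rfc4, a clamp loader subunit, by 1.65 (SE 0.19, edgeR adjusted p = 1.07e-05), and Pola1, the primase-associated polymerase, by 1.70 (SE 0.21, edgeR adjusted p = 2.08e-05).

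Most genes of mineralisation and bone matrix also differed. Of 17 tested, 10 had a higher and 2 a lower osteoblast response, against 20.1% and 17.7% of all genes, with a median difference of 2.75. Osteoblast cultures raised 8 and lowered 5, against 28.5% and 27.7% of all genes. Chondrocyte cultures lowered 10 and raised 0, against 8.57% and 8.86%. Bglap and Bglap2, near-identical osteocalcin genes whose counts are uncertain, are among the 10 and had means of at most 1.2 CPM. The 2 with a lower osteoblast response were Sparc, the osteonectin gene, and Slc20a2, a phosphate transporter.

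Ibsp (ENSMUSG00000029306, chr5:104299171-104311469) encodes bone sialoprotein, which nucleates mineral. It was at 0.381, 0.47, 0.47 and 3.17 CPM in normoxic and 75.5, 69.6 and 63.1 CPM in hypoxic osteoblast cultures. Chondrocyte cultures held 759, 1892, 1269 and 731 CPM at 21% O2 and 456, 680 and 810 CPM at 0.5% O2. Hypoxia thus separated the osteoblast libraries fully, while the chondrocyte groups overlapped and both stayed above every osteoblast library. Its response in osteoblast cultures was 5.90 (SE 0.62, edgeR adjusted p = 9.93e-06), the chondrocyte response -0.84 (SE 0.49, edgeR adjusted p = 0.282) and the difference 6.74 (SE 0.81, edgeR adjusted p = 7.87e-05). Without replicate 4 of the normoxic osteoblast group the difference was 8.12 (SE 0.70, edgeR adjusted p = 9.13e-06).

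Spp1, which encodes osteopontin, was at 997, 962, 970 and 1076 CPM in normoxic and 4890, 4570 and 4581 CPM in hypoxic osteoblast cultures. Chondrocyte cultures held 1368, 2147, 2218 and 2509 CPM at 21% O2 and 1056, 1326 and 1117 CPM at 0.5% O2. It rose in all hypoxic osteoblast libraries and fell in all hypoxic chondrocyte libraries relative to the normoxic ranges. The osteoblast response was 2.22 (SE 0.15, edgeR adjusted p = 9.8e-09), the chondrocyte response -0.82 (SE 0.15, edgeR adjusted p = 0.0016) and the difference 3.05 (SE 0.22, edgeR adjusted p = 9.55e-08).

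Dmp1, an acidic matrix protein of osteocytes and mineralising cells, was at 1.97, 1.02, 1.11 and 0.444 CPM in normoxic and 6.99, 13.6 and 8.67 CPM in hypoxic osteoblast cultures. Chondrocyte cultures held 43.8, 48.3, 38 and 50.8 CPM at 21% O2 and 5.66, 9.66 and 11.9 CPM at 0.5% O2. At 0.5% O2 the cultures overlapped, with means of 9.75 and 9.08 CPM, reached from opposite sides. The difference was 5.43 (SE 0.51, edgeR adjusted p = 5.38e-06). Mepe, another acidic phosphoprotein of bone, differed by 8.0 (SE 1.02, edgeR adjusted p = 5.03e-05), from means of 0.622 and 3.41 CPM in normoxic and hypoxic osteoblast cultures and of 6.23 and 0.121 CPM in chondrocyte cultures. With normoxic osteoblast replicate 4 left out the difference of Mepe was 8.59 (SE 1.03, edgeR adjusted p = 2.44e-05).

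Alpl, the alkaline phosphatase that frees phosphate for mineral, was at 1.59, 2.51, 1.38 and 39.6 CPM in normoxic and 68.1, 72.3 and 82.8 CPM in hypoxic osteoblast cultures. Chondrocyte cultures held 288, 357, 279 and 125 CPM at 21% O2 and 66, 88.6 and 114 CPM at 0.5% O2. Replicate 4 of the normoxic osteoblast group stood far above the other 3 but below the hypoxic libraries. The difference was 4.26 (SE 1.38, edgeR adjusted p = 0.0322), and without that replicate it was 6.91 (SE 0.59, edgeR adjusted p = 8.15e-06). The call was lost with no filter and without any 1 hypoxic chondrocyte library, hypoxic osteoblast replicate 2 or 3, normoxic chondrocyte replicate 2 or 3 or normoxic osteoblast replicate 2 (edgeR adjusted p = 0.0504 to 0.0743).

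Among the regulators of osteoblasts, 16 were tested, 4 with a higher and 2 with a lower osteoblast response, a called share of 37.5% against 37.8% of all genes. Leaving out normoxic osteoblast replicate 4, these counts were 10 and 2, and 2 were higher without hypoxic chondrocyte replicate 1 or 3, hypoxic osteoblast replicate 3 or normoxic osteoblast replicate 1 or 3. Runx2, the transcription factor required for bone formation, was at 59, 68.6, 67.5 and 56.6 CPM in normoxic and 124, 146 and 149 CPM in hypoxic osteoblast cultures. Chondrocyte cultures held 91.1, 87.8, 93.1 and 79.7 CPM at 21% O2 and 89.6, 82.7 and 76 CPM at 0.5% O2. The osteoblast groups did not overlap and the chondrocyte groups did. In osteoblast cultures the response was 1.15 (SE 0.09, edgeR adjusted p = 5.72e-08), the chondrocyte response -0.09 (SE 0.09, edgeR adjusted p = 0.584) and the difference 1.24 (SE 0.13, edgeR adjusted p = 4.99e-06).

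Sp7, which encodes osterix and acts after Runx2, was at 1.14, 0.666, 1.34 and 44.9 CPM in normoxic and 96.6, 96.7 and 95.9 CPM in hypoxic osteoblast cultures. Chondrocyte cultures held 217, 183, 161 and 112 CPM at 21% O2 and 166, 281 and 258 CPM at 0.5% O2. The normoxic osteoblast group was split, with replicate 4 far above the other 3. The difference was 2.50 (SE 1.5, edgeR adjusted p = 0.217), not called, and without that replicate it was 6.0 (SE 0.44, edgeR adjusted p = 1.58e-06). Fosl2, an AP-1 subunit, rose in both cultures with a difference of 0.72 (SE 0.13, edgeR adjusted p = 0.000535). Msx1, a homeobox gene of the cranial neural crest, fell in both, with responses of -4.03 in osteoblast and -2.79 in chondrocyte cultures, with a difference of -1.24 (SE 0.20, edgeR adjusted p = 0.000157). Snai2, a repressor of the epithelial state, had a difference of 1.29 (SE 0.42, edgeR adjusted p = 0.0296), which lost its call with no filter and without replicate 1 or 3 of the hypoxic chondrocyte, hypoxic osteoblast or normoxic osteoblast group (edgeR adjusted p = 0.0508 to 0.0735). Its normoxic osteoblast replicate 4 was at 69.1 CPM, and with that library left out the difference was 1.78 (SE 0.12, edgeR adjusted p = 1.41e-09).

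**Figure D5:**
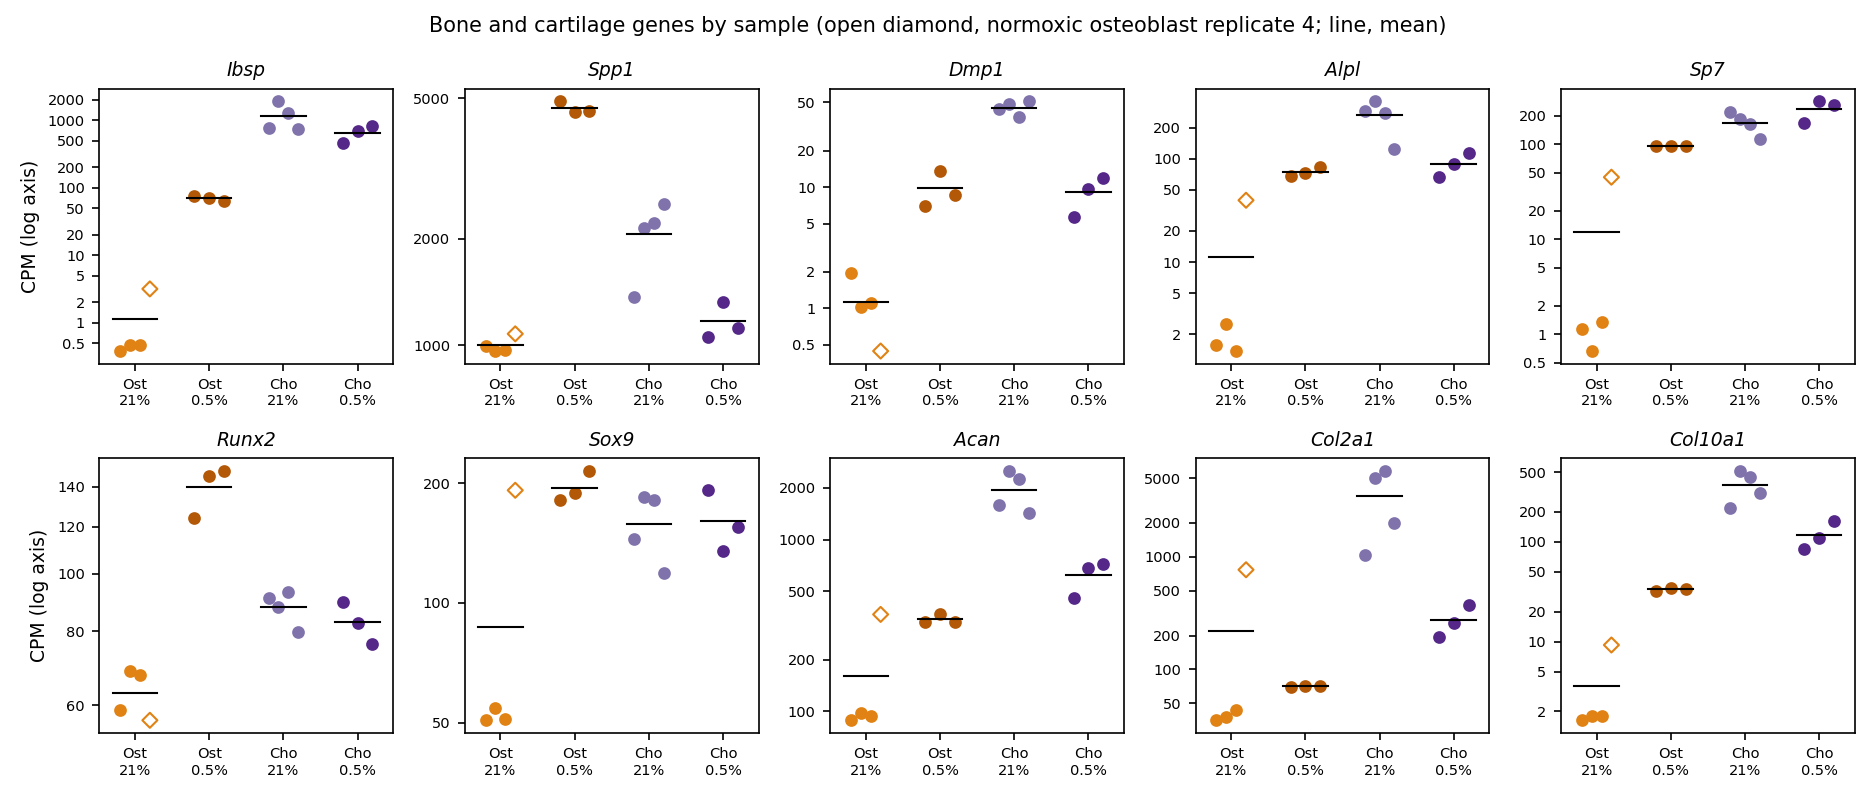
Level of 10 bone and cartilage genes in each library, in CPM on a log axis, with a line at the mean of each group and normoxic osteoblast replicate 4 as an open diamond. Ibsp and Spp1 are higher in all hypoxic than in all normoxic osteoblast libraries, and replicate 4 lies above the other 3 for Ibsp, Alpl, Sp7, Sox9, Acan, Col2a1 and Col10a1.

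Most cartilage matrix genes tested fell in hypoxic chondrocyte cultures and, apart from Col11a1, had no called response in osteoblast cultures. Of 14 genes tested of 21 listed, 9 fell and 0 rose in chondrocyte cultures, against 8.57% and 8.86% of all genes, with a median of -3.09. In osteoblast cultures 1 fell and 0 rose, against 27.7% and 28.5%. The median there was -0.91 and became 0.29 without replicate 4 of the normoxic osteoblast group. In the difference 4 were higher and 1 lower, a called share of 35.7% against 37.8% of all genes. Without replicate 4 of the normoxic osteoblast group 10 were higher and 1 lower, and the median difference was 3.69 against 2.09 with it.

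Acan, the aggregating proteoglycan of cartilage, was at 88.8, 97.6, 93.9 and 367 CPM in normoxic and 331, 368 and 332 CPM in hypoxic osteoblast cultures. Chondrocyte cultures held 1584, 2517, 2265 and 1423 CPM at 21% O2 and 455, 683 and 726 CPM at 0.5% O2. All hypoxic chondrocyte libraries lay below the normoxic ones, and the osteoblast groups overlapped through replicate 4. The chondrocyte response was -1.65 (SE 0.49, edgeR adjusted p = 0.0399), which lost its call without any 1 of the hypoxic libraries of either culture or of normoxic chondrocyte replicates 1 to 3 (edgeR adjusted p = 0.0525 to 0.141). Its response in osteoblast cultures was 1.09 (SE 0.47, edgeR adjusted p = 0.0664) and the difference 2.74 (SE 0.67, edgeR adjusted p = 0.00795). Without that replicate the osteoblast response was 1.86 (SE 0.23, edgeR adjusted p = 2.3e-05) and the difference 3.51 (SE 0.31, edgeR adjusted p = 3.76e-06).

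Col2a1, the main fibrillar collagen of cartilage, was at 35.3, 37.8, 43.2 and 768 CPM in normoxic and 69.8, 70.6 and 71.8 CPM in hypoxic osteoblast cultures. Chondrocyte cultures held 1030, 5051, 5825 and 2015 CPM at 21% O2 and 194, 256 and 371 CPM at 0.5% O2. The normoxic chondrocyte libraries spread widely but stayed above every hypoxic one. Neither the chondrocyte response, -3.67 (SE 1.24, edgeR adjusted p = 0.0691), nor the difference, 2.02 (SE 1.54, edgeR adjusted p = 0.328), was called. Leaving out normoxic osteoblast replicate 4, they were -3.67 (SE 0.59, edgeR adjusted p = 0.00147) and 4.52 (SE 0.80, edgeR adjusted p = 0.00133). Comp, a cartilage oligomeric protein, fell in chondrocyte cultures from 51.3 ± 31.6 to 3.67 ± 1.34 CPM and had a difference of 3.47 (SE 0.84, edgeR adjusted p = 0.00668), not called with limma-voom. Matn4, a matrilin, fell there from 8.56 ± 3.89 to 0.333 ± 0.179 CPM and had a difference of 5.07 (SE 0.61, edgeR adjusted p = 2.1e-05). Col11a1, the gene with a lower osteoblast response, had a difference of -0.59 (SE 0.15, edgeR adjusted p = 0.0056), not called when all 28 samples were in the fit.

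Regulators of chondrocytes and of hypertrophy gave 8 higher and 1 lower osteoblast response of 15 tested (60% called, against 37.8% of all genes). Without replicate 4 of the normoxic osteoblast group the counts were 12 and 1. Sox9, the master factor of cartilage, was at 50.7, 54.4, 51.1 and 192 CPM in normoxic and 181, 189 and 215 CPM in hypoxic osteoblast cultures. Chondrocyte cultures held 145, 185, 182 and 119 CPM at 21% O2 and 192, 135 and 155 CPM at 0.5% O2. Replicate 4 overlapped the hypoxic osteoblast libraries, and the chondrocyte groups overlapped as well. Its difference, 1.14 (SE 0.61, edgeR adjusted p = 0.17), was not called, and without that replicate it was 1.87 (SE 0.22, edgeR adjusted p = 1.8e-05).

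Sox5, a partner of Sox9, was at 13.3, 12.1, 14.6 and 16.1 CPM in normoxic and 54.2, 53.7 and 54 CPM in hypoxic osteoblast cultures. Chondrocyte cultures held 16.2, 22, 21.7 and 23.3 CPM at 21% O2 and 15.9, 11.8 and 10.5 CPM at 0.5% O2. It rose in osteoblast and fell in chondrocyte cultures with no overlap in either, and replicate 4 was close to its group. The difference was 2.65 (SE 0.21, edgeR adjusted p = 2.09e-07). Mef2c, a driver of hypertrophy, also rose in osteoblast and fell in chondrocyte cultures, with a difference of 1.08 (SE 0.17, edgeR adjusted p = 0.000138). Col10a1, the collagen of hypertrophic cartilage, was at 1.63, 1.8, 1.81 and 9.26 CPM in normoxic and 32.3, 34.4 and 34 CPM in hypoxic osteoblast cultures. Its difference was 4.84 (SE 0.78, edgeR adjusted p = 0.00065), and without replicate 4 it was 5.90 (SE 0.53, edgeR adjusted p = 1.12e-05). Scin, an actin-severing protein listed with hypertrophy, fell in chondrocyte cultures from 8.58 to 0.622 CPM and had a difference of 4.00 (SE 0.80, edgeR adjusted p = 0.0013), or 4.56 (SE 0.82, edgeR adjusted p = 0.000347) without replicate 4.

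Fibrillar collagens and their processing enzymes were called at about the share of all genes (38.7% against 37.8%), with 7 higher and 5 lower osteoblast responses of 31 tested and a median difference of -0.19. With library size as the only scaling the counts were 6 and 10, and without replicate 4 of the normoxic osteoblast group 10 and 10. P4ha1, a prolyl hydroxylase subunit needed for stable collagen helices and a factor target, was at 146, 147, 138 and 186 CPM in normoxic and 892, 898 and 1111 CPM in hypoxic osteoblast cultures. Chondrocyte cultures held 663, 764, 748 and 736 CPM at 21% O2 and 1449, 1465 and 1415 CPM at 0.5% O2. It rose in both cultures without overlap, with a difference of 1.66 (SE 0.15, edgeR adjusted p = 1.06e-06). Loxl2, a collagen crosslinking oxidase, was at 420, 418, 397 and 409 CPM in normoxic and 431, 369 and 356 CPM in hypoxic osteoblast cultures. Its chondrocyte values were 224, 368, 368 and 303 CPM at 21% O2 and 710, 721 and 745 CPM at 0.5% O2. The increase was seen in chondrocyte cultures, where all hypoxic libraries exceeded all normoxic ones, and the difference was -1.29 (SE 0.19, edgeR adjusted p = 7.7e-05). Loxl4, a related oxidase, went the other way with a difference of 1.77 (SE 0.19, edgeR adjusted p = 4.09e-06), and P3h1, a prolyl 3-hydroxylase, had a difference of -1.28 (SE 0.17, edgeR adjusted p = 2.7e-05).

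Small proteoglycans, tenascins and related matrix proteins gave 3 higher and 9 lower osteoblast responses of 21 tested, with a median difference of -0.18. Of all genes, 20.1% were higher and 17.7% lower. Leaving out normoxic osteoblast replicate 4, 7 were higher and 9 lower with a median of 0.01, and without replicate 1 of the hypoxic chondrocyte group 6 were higher. Tnc, which encodes tenascin C, was at 2324, 2316, 2236 and 1887 CPM in normoxic and 281, 297 and 221 CPM in hypoxic osteoblast cultures. Chondrocyte cultures held 1604, 1775, 1703 and 1274 CPM at 21% O2 and 626, 922 and 908 CPM at 0.5% O2. It fell in both, more in osteoblast cultures, with a difference of -2.09 (SE 0.21, edgeR adjusted p = 3.16e-06). Dcn, which encodes decorin, was at 32.2, 73.7, 74 and 37.1 CPM in normoxic and 1.25, 2.17 and 3.08 CPM in hypoxic chondrocyte cultures. Osteoblast cultures held 29.4, 31.7, 29 and 47.9 CPM at 21% O2 and 31.9, 34.4 and 31.8 CPM at 0.5% O2. The fall was found in chondrocyte cultures, the osteoblast response of -0.08 was not called (edgeR adjusted p = 0.854), and the difference was 4.56 (SE 0.51, edgeR adjusted p = 2.85e-05). Postn, which encodes periostin, and Ccn4, a matricellular Wnt target, had differences of -1.27 (SE 0.20, edgeR adjusted p = 0.000158) and -0.78 (SE 0.12, edgeR adjusted p = 0.000143).

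Matrix metalloproteinases and their inhibitors gave 7 higher and 4 lower osteoblast responses of 20 tested (55% called, against 37.8% of all genes), and 10 and 4 without replicate 4 of the normoxic osteoblast group. Mmp13, the collagenase of bone and hypertrophic cartilage, was at 9.59, 8.82, 9.93 and 9.36 CPM in normoxic and 99.2, 87.4 and 106 CPM in hypoxic osteoblast cultures. Chondrocyte cultures held 2.2, 4.8, 6.03 and 3.81 CPM at 21% O2 and 1.48, 2.01 and 1.02 CPM at 0.5% O2. The osteoblast groups were far apart, and the chondrocyte values were low at both oxygen levels. The difference was 4.86 (SE 0.37, edgeR adjusted p = 4.99e-07). Adamts12 and Mmp17 had differences of 2.14 (SE 0.30, edgeR adjusted p = 0.000108) and 1.56 (SE 0.30, edgeR adjusted p = 0.000879), and Mmp16 of -1.36 (SE 0.26, edgeR adjusted p = 0.000885).

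Most contractile genes of smooth muscle fell in osteoblast cultures. Of 19 tested, 1 had a higher and 10 a lower osteoblast response, against 20.1% and 17.7% of all genes, with a median difference of -0.98. Osteoblast cultures lowered 15 and raised 0, against 27.7% and 28.5% of all genes. Chondrocyte cultures raised 3 and lowered 1, against 8.86% and 8.57%. Myl9, the regulatory light chain of smooth muscle myosin, was at 389, 388, 392 and 495 CPM in normoxic and 141, 125 and 133 CPM in hypoxic osteoblast cultures. Chondrocyte cultures held 81.9, 94.7, 92.9 and 105 CPM at 21% O2 and 104, 78.2 and 87 CPM at 0.5% O2. Hypoxic osteoblast libraries dropped toward the chondrocyte levels, which overlapped. The difference was -1.58 (SE 0.16, edgeR adjusted p = 3e-06). Tpm1 and Tpm2, tropomyosins, differed by -1.36 (SE 0.18, edgeR adjusted p = 2.7e-05) and -1.12 (SE 0.12, edgeR adjusted p = 6.4e-06). Cnn1, which encodes calponin, fell in osteoblast cultures from 6.84 ± 3.6 to 2.96 ± 0.148 CPM and rose in chondrocyte cultures from 2.93 ± 0.459 to 7.61 ± 1.19 CPM, with a difference of -2.59 (SE 0.40, edgeR adjusted p = 0.000141). The 1 gene with a higher osteoblast response was Mylk, the kinase of the light chain, which fell by 0.87 log2 units in osteoblast and 2.38 in chondrocyte cultures. Skeletal muscle markers summed to 30 to 43.4 CPM in normoxic and 21.7 to 22.6 CPM in hypoxic osteoblast cultures, with Myod1, Myog, Myf5 and Myh3 at 0, and their part in the result was not tested.

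Most genes of sterol synthesis fell in each culture, and most had the lower response in osteoblast cultures. Of 24 genes tested, 0 had a higher and 19 a lower osteoblast response, against 20.1% and 17.7% of all genes, with a median difference of -0.95. Without replicate 4 of the normoxic osteoblast group the counts were 0 and 22. Osteoblast cultures lowered 23, against 27.7% of all genes, with a median of -1.60. Chondrocyte cultures lowered 17, against 8.57%, with a median of -0.62, and neither culture raised any. Sqle, squalene epoxidase, an oxygen-consuming step, was at 245, 233, 226 and 214 CPM in normoxic and 85.3, 75.1 and 70.1 CPM in hypoxic osteoblast cultures. Its chondrocyte values were 112, 132, 142 and 167 CPM at 21% O2 and 158, 133 and 144 CPM at 0.5% O2, which overlapped. The osteoblast response was -1.58 (SE 0.12, edgeR adjusted p = 2.85e-08) and the difference -1.65 (SE 0.16, edgeR adjusted p = 2.18e-06). Hsd17b7, another enzyme of the list, had a difference of -0.92 (SE 0.10, edgeR adjusted p = 7.45e-06).

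Chaperones and folding enzymes of the endoplasmic reticulum mostly had lower responses in osteoblast cultures. Of 21 tested, 1 had a higher and 13 a lower osteoblast response, against 20.1% and 17.7% of all genes. Osteoblast cultures lowered 11 and raised 2, against 27.7% and 28.5% of all genes. Chondrocyte cultures raised 6 and lowered 0, against 8.86% and 8.57%. The gene with the higher response was Ero1l, the oxidase of the folding machinery and also a factor target. Hspa5, which encodes the chaperone BiP, was at 750, 725, 719 and 1398 CPM in normoxic and 457, 406 and 399 CPM in hypoxic osteoblast cultures. Chondrocyte cultures held 1089, 951, 924 and 919 CPM at 21% O2 and 1331, 1301 and 1436 CPM at 0.5% O2. Replicate 4 was the highest normoxic osteoblast library, and all hypoxic osteoblast libraries lay below all normoxic ones. The difference was -1.58 (SE 0.27, edgeR adjusted p = 0.000407). Dnajc3 and Dnajb11, cochaperones, differed by -1.01 (SE 0.13, edgeR adjusted p = 1.77e-05) and -1.12 (SE 0.20, edgeR adjusted p = 0.000535). Sel1l, an adaptor of protein degradation, fell in osteoblast and rose in chondrocyte cultures, with a difference of -0.77 (SE 0.13, edgeR adjusted p = 0.000198), and its call in chondrocyte cultures was lost without hypoxic replicate 2 or 3 (edgeR adjusted p = 0.0524 and 0.0574).

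BMP targets and antagonists gave 6 higher and 0 lower osteoblast responses of 17 tested (35.3% called, against 37.8% of all genes), and 15 and 0 without replicate 4 of the normoxic osteoblast group. Chrdl1 (ENSMUSG00000031283, chrX:143285674-143394262) encodes a secreted BMP antagonist. It was at 128, 179, 146 and 189 CPM in normoxic and 3.6, 2.4 and 1.9 CPM in hypoxic chondrocyte cultures. Osteoblast cultures held 41.4, 45.1, 40.2 and 37.4 CPM at 21% O2 and 52.3, 48.7 and 57.4 CPM at 0.5% O2. Hypoxia left chondrocyte cultures far below every other library, while the osteoblast groups lay side by side without overlap. The chondrocyte response was -5.92 (SE 0.21, edgeR adjusted p = 1.16e-10), the osteoblast response 0.36 (SE 0.15, edgeR adjusted p = 0.0541) and the difference 6.28 (SE 0.25, edgeR adjusted p = 9.64e-10).

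Grem1, another BMP antagonist, was at 552, 543, 538 and 903 CPM in normoxic and 2156, 1831 and 1523 CPM in hypoxic osteoblast cultures. Chondrocyte cultures held 108, 141, 144 and 175 CPM at 21% O2 and 134, 129 and 121 CPM at 0.5% O2. It rose in osteoblast cultures without overlap, and the chondrocyte groups overlapped. The difference was 1.68 (SE 0.27, edgeR adjusted p = 0.00028). Id1, a direct BMP target, rose in osteoblast cultures from 53.1 ± 10.8 to 91.7 ± 4.12 CPM and had a difference of 1.10 (SE 0.18, edgeR adjusted p = 0.000179). Fstl3, a follistatin-like antagonist, had a difference of 0.95 (SE 0.26, edgeR adjusted p = 0.0117).

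TGF-beta targets gave 6 higher and 5 lower osteoblast responses of 20 tested (55% called, against 37.8% of all genes), and 9 and 6 without replicate 4 of the normoxic osteoblast group. Pmepa1, a feedback inhibitor of the pathway, fell in osteoblast cultures from 160 ± 10.4 to 46.4 ± 6.88 CPM and in chondrocyte cultures from 497 ± 23 to 398 ± 8.81 CPM, with a difference of -1.46 (SE 0.13, edgeR adjusted p = 7.9e-07). Its call in chondrocyte cultures was lost without any 1 of the hypoxic chondrocyte libraries or normoxic chondrocyte replicates 1 to 3 (edgeR adjusted p = 0.0523 to 0.0819). Among the ligands on the list, Tgfb1 had a difference of 1.06 (SE 0.18, edgeR adjusted p = 0.000356) and Tgfb3 of -1.08 (SE 0.16, edgeR adjusted p = 8.85e-05). Chondrocyte medium held added TGF-beta3 and osteoblast medium did not. Wnt targets and inhibitors gave 2 higher and 5 lower osteoblast responses of 19 tested (36.8% called, against 37.8% of all genes), and 6 and 5 without replicate 4 of the normoxic osteoblast group. Wnt5a, a noncanonical ligand, fell in osteoblast cultures from 199 ± 61.4 to 48 ± 7.45 CPM, its chondrocyte response of 0.38 was not called (edgeR adjusted p = 0.248), and the difference was -2.43 (SE 0.30, edgeR adjusted p = 4.32e-05). With normoxic osteoblast replicate 4 left out the chondrocyte response of Wnt5a was called, at 0.37 (SE 0.08, edgeR adjusted p = 0.00202). Dkk2 and Nkd2, inhibitors of the pathway, had differences of -2.95 (SE 0.43, edgeR adjusted p = 8.11e-05) and -1.07 (SE 0.22, edgeR adjusted p = 0.00126).

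Most glucocorticoid targets rose in osteoblast cultures. Dexamethasone was at 0.1 µM in both media, and its part in the result was not tested. At 21% O2 the mean level was lower in osteoblast than in chondrocyte cultures for 1 of 16, with a median gap of 1.15 log2 units. Of 16 tested, 12 had a higher and 0 a lower osteoblast response, against 20.1% and 17.7% of all genes, with a median difference of 1.3. Osteoblast cultures raised 15, against 28.5% of all genes, with a median of 1.25. Chondrocyte cultures raised 3, against 8.86%, with a median of 0.36, and neither culture lowered any. Sgk1, a serum- and glucocorticoid-regulated kinase, was at 617, 614, 623 and 462 CPM in normoxic and 1658, 1800 and 2007 CPM in hypoxic osteoblast cultures. Chondrocyte cultures held 298, 266, 288 and 380 CPM at 21% O2 and 504, 349 and 337 CPM at 0.5% O2. The osteoblast groups did not overlap and the chondrocyte groups did. The difference was 1.29 (SE 0.22, edgeR adjusted p = 0.000316). Klf9 and Per1 differed by 1.42 (SE 0.20, edgeR adjusted p = 7.41e-05) and 1.09 (SE 0.14, edgeR adjusted p = 2.9e-05). Ddit4, an inhibitor of mTOR signalling that is also on the list of factor targets, differed by 2.64 (SE 0.31, edgeR adjusted p = 3.13e-05).

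The genes with the largest higher osteoblast response, among those with a mean of at least 10 counts in each group, were Ibsp, H19, Slc36a2, Chrdl1, Fosl1, Serpina3m, Hpgd and Dmp1. H19 (ENSMUSG00000000031, chr7:142575529-142578143), an imprinted noncoding RNA, was at 665, 747, 859 and 802 CPM in normoxic and 35.1, 19.6 and 24.2 CPM in hypoxic chondrocyte cultures. Osteoblast cultures held 28.1, 26.9, 28.8 and 312 CPM at 21% O2 and 368, 307 and 355 CPM at 0.5% O2. It fell in chondrocyte cultures, and in osteoblast cultures replicate 4 already lay within the hypoxic range. The chondrocyte response was -4.87 (SE 0.98, edgeR adjusted p = 0.00661), the osteoblast response 1.79 (SE 0.80, edgeR adjusted p = 0.0775) and the difference 6.66 (SE 1.24, edgeR adjusted p = 0.00179). Without that replicate the osteoblast response was 3.60 (SE 0.18, edgeR adjusted p = 1.09e-09) and the difference 8.47 (SE 0.25, edgeR adjusted p = 4.17e-11).

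Fosl1, an AP-1 subunit, was at 0.277, 0.392, 0.537 and 1.52 CPM in normoxic and 56.2, 61 and 75.4 CPM in hypoxic osteoblast cultures. Chondrocyte cultures held 18.8, 11.5, 13.2 and 18.6 CPM at 21% O2 and 22.8, 21.2 and 17.9 CPM at 0.5% O2. The osteoblast groups were far apart and the chondrocyte groups overlapped. The difference was 6.10 (SE 0.47, edgeR adjusted p = 1.06e-06), and 6.88 (SE 0.33, edgeR adjusted p = 5.59e-10) with normoxic osteoblast replicate 4 left out. Slc36a2, an amino acid transporter, Serpina3m, a serine protease inhibitor, and Hpgd, which inactivates prostaglandins, rose in osteoblast and fell in chondrocyte cultures, with differences of 6.46 (SE 0.63, edgeR adjusted p = 3.33e-06), 6.07 (SE 0.79, edgeR adjusted p = 8.38e-05) and 6.03 (SE 0.46, edgeR adjusted p = 1.67e-07). With the same library left out, the difference of Slc36a2 was 7.28 (SE 0.42, edgeR adjusted p = 2.62e-10). Serpina3m belongs to a cluster of close paralogs, so its counts are uncertain.

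The largest lower osteoblast responses, again among genes with a mean of at least 10 counts in each group, were those of Fgf18, Adra2a, Slc4a11, Erc2, Gpm6b, Spats2l, Slit2 and Casq2. Slit2, a secreted guidance cue, was at 670, 691, 674 and 281 CPM in normoxic and 35.2, 33.3 and 21.3 CPM in hypoxic osteoblast cultures. Chondrocyte cultures held 66, 77.2, 82.5 and 95.1 CPM at 21% O2 and 50.3, 47.1 and 51.1 CPM at 0.5% O2. Hypoxic libraries lay below normoxic ones by a wide margin in osteoblast cultures and by a narrow one, not called (edgeR adjusted p = 0.109), in chondrocyte cultures. With normoxic osteoblast replicate 4 left out that response was called, at -0.70 (SE 0.15, edgeR adjusted p = 0.00294). The difference was -3.58 (SE 0.40, edgeR adjusted p = 2.58e-05). Fgf18, a growth factor for cartilage and bone, was at 18.6, 16.8, 16.4 and 3.39 CPM in normoxic and 0.463, 0.617 and 0.561 CPM in hypoxic osteoblast cultures. Its chondrocyte values were 0.673, 0.48, 0.67 and 1.01 CPM at 21% O2 and 1.03, 0.828 and 1.15 CPM at 0.5% O2. The fall was found in osteoblast cultures, and the difference was -5.14 (SE 0.73, edgeR adjusted p = 0.000108), not called with limma-voom. Adra2a, an adrenergic receptor, had a difference of -4.11 (SE 0.42, edgeR adjusted p = 1.58e-05), and Slc4a11, a membrane transporter, of -4.05 (SE 0.49, edgeR adjusted p = 1.3e-05). Gpm6b, a membrane proteolipid, and Spats2l had differences of -3.94 (SE 0.45, edgeR adjusted p = 8.01e-06) and -3.94 (SE 0.35, edgeR adjusted p = 6.93e-07).

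Opposite responses were clearest for a small set. Egr1, an immediate early transcription factor, was at 24.4, 23, 27.4 and 6.5 CPM in normoxic and 127, 76 and 69 CPM in hypoxic osteoblast cultures. Chondrocyte cultures held 22.1, 24.4, 23.7 and 24.7 CPM at 21% O2 and 4.38, 4.81 and 5.25 CPM at 0.5% O2. It rose in osteoblast and fell in chondrocyte cultures with no overlap in either. In osteoblast cultures the response was 2.16 (SE 0.36, edgeR adjusted p = 0.000311), the chondrocyte response -2.30 (SE 0.42, edgeR adjusted p = 0.00258) and the difference 4.46 (SE 0.55, edgeR adjusted p = 7.58e-05).

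In the other direction, Megf6, which encodes a protein with repeated EGF-like domains, was at 364, 379, 374 and 428 CPM in normoxic and 158, 186 and 124 CPM in hypoxic osteoblast cultures. Chondrocyte cultures held 93.4, 101, 85.5 and 80.3 CPM at 21% O2 and 147, 222 and 217 CPM at 0.5% O2. It fell in osteoblast and rose in chondrocyte cultures with no overlap, so that at 0.5% O2 the cultures had overlapping levels. The difference was -2.43 (SE 0.21, edgeR adjusted p = 8.43e-07). Casq2, a calcium-storing protein of muscle, was at 7.13, 7.91, 7.11 and 7.26 CPM in normoxic and 1.97, 1.51 and 1.68 CPM in hypoxic osteoblast cultures. Its chondrocyte values were 0.428, 0.48, 0.388 and 0.399 CPM at 21% O2 and 1.09, 1.26 and 1.12 CPM at 0.5% O2. Low oxygen narrowed the gap between the cultures from both sides, with a difference of -3.53 (SE 0.27, edgeR adjusted p = 1.8e-07). Erc2, Fam19a2 and Nipal3 also fell in osteoblast and rose in chondrocyte cultures, at low levels, with differences of -4.01 (SE 0.63, edgeR adjusted p = 0.000146), -2.78 (SE 0.45, edgeR adjusted p = 0.000197) and -2.95 (SE 0.49, edgeR adjusted p = 0.000257). The chondrocyte call of Nipal3 was lost without hypoxic chondrocyte replicate 2 or 3, hypoxic osteoblast replicate 3 or any 1 of normoxic chondrocyte replicates 1 to 3 (edgeR adjusted p = 0.0514 to 0.132), and the osteoblast call of Fam19a2 without hypoxic osteoblast replicate 2 (edgeR adjusted p = 0.0648).

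Some genes were near 0 in 1 group. Pgm5 (ENSMUSG00000041731, chr19:24683016-24861855), a phosphoglucomutase-like protein of muscle adhesion sites, was at 32.5, 30.6, 30.2 and 22 CPM in normoxic and 0.154, 0.0685 and 0.351 CPM in hypoxic osteoblast cultures. Chondrocyte cultures held 0.337, 0.4, 0.423 and 0.725 CPM at 21% O2 and 1.77, 3.39 and 3.41 CPM at 0.5% O2. It was nearly lost from hypoxic osteoblast libraries and rose in chondrocyte cultures. The difference was -9.79 (SE 0.49, edgeR adjusted p = 5.22e-09). Arhgap28, a GTPase-activating protein, and Emx2os had differences of -7.10 (SE 0.65, edgeR adjusted p = 9.45e-07) and -3.63 (SE 0.43, edgeR adjusted p = 1.27e-05). Emx2os lies antisense to Emx2, and whether counting used strand is not stated, so its counts are uncertain.

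Prdm1, the transcriptional repressor BLIMP1, was at 0.104, 0.0392, 0.101 and 0.381 CPM in normoxic and 23.1, 25.3 and 25.8 CPM in hypoxic osteoblast cultures. Chondrocyte cultures held 10.3, 12.3, 11.1 and 10.9 CPM at 21% O2 and 17.9, 13.2 and 13.6 CPM at 0.5% O2. It was near 0 in normoxic osteoblast libraries only, and the difference was 6.78 (SE 0.36, edgeR adjusted p = 6.33e-09), or 7.71 (SE 0.29, edgeR adjusted p = 1.82e-12) with normoxic osteoblast replicate 4 left out. Smtnl2, a smoothelin-like protein, was likewise near 0 in normoxic osteoblast libraries only, at 0, 0.0784, 0.101 and 0.0634 CPM. It was at 14.8, 14.5 and 14.3 CPM in hypoxic osteoblast cultures, with a difference of 6.24 (SE 0.51, edgeR adjusted p = 3.47e-07). Smtnl2 rose in chondrocyte cultures too, from a mean of 3.46 to 10.2 CPM, a called response of 1.57 (SE 0.25, edgeR adjusted p = 0.000403). Aldh1a3, a retinoic acid-synthesising enzyme, had 2 counts in the normoxic and 243 in the hypoxic osteoblast group, a ratio of 168 after scaling (exact 95% counting interval 46.1 to 1397, which covers counting error only), and its difference was 6.83 (SE 0.53, edgeR adjusted p = 2.06e-07).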

How the data were processed

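Polyadenylated RNA of 14 libraries was sequenced after a stranded kit, per the labels. The submitters' processing notes name HISAT2 2.0.5, StringTie 1.3.3b, featureCounts 1.5.0-p3 and mm10 without roles, and use of strand in counting is not given in the sources used here. The authors deposited 1 table of whole-number read counts for 54429 Ensembl genes in 28 libraries, and 54314 genes matched a symbol. The deposited pairwise tables were not used.

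The 4 groups were fitted together with edgeR 4.0.16 under R 4.3.3 (TMM scaling, edgeR's default trims of 30% and 5%, robust quasi-likelihood test, two-sided, Benjamini-Hochberg adjustment over 15199 genes). Genes needed the equivalent of 10 counts in as many libraries as the smallest group and 15 in total. CPM are counts per 1000000 of TMM-scaled library size, from totals of 23357645 to 34444072. The self-test on simulated counts passed, with most of the made differences recovered in the right direction and few false calls. Its counts had the same spread for all genes and no outlying library. It therefore checks the code and not the calls in these data. Alternatives used DESeq2 1.42.0, limma-voom (limma 3.58.1), other scalings, filters and samples.

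Named genes, without predicted genes, were, among called genes, the 8 largest differences each way whose mean counts reached 10 in each group, 6 each way among opposite responses by the smaller response, 3 each way with a group under that mean, by p, up to 4 of each gene list by p, and 10 skeletal or oxygen genes set by name, called or not. Some genes that the rule chose are not reported here. Other list members are named where a count turns on them, after their values were seen. Members, lists and tests were chosen with earlier results of these data known.

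Replicate numbers were not used as pairs, since residuals of same-numbered libraries correlated between -0.219 and 0.0682 in 19 pairs of groups and numbers, with 0 above 0.1.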

Additional observations from a re-analysis of the deposited data

Results flagged for a closer look

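The difference between the cultures in their oxygen response was called for 5750 of 15199 genes by the interaction contrast itself.

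Within the groups of 4, 1 library lay apart from the other 3 by Dixon's criterion in 53 of 256 pairs of a named gene and a group, and chance gives about 1 in 20. Of the 53, 41 belonged to replicate 4 of the normoxic osteoblast group and 5 to replicate 4 of the normoxic chondrocyte group. Replicate 4 of the normoxic osteoblast group was the highest for Ibsp (3.17 CPM), H19 (312 CPM), Slc36a2 (1.81 CPM), Cnn1 (12.2 CPM), Acan (367 CPM), Col10a1 (9.26 CPM), P3h1 (165 CPM), Dcn (47.9 CPM), Myl9 (495 CPM), Eno1 (244 CPM), Sdhb (43.7 CPM) and Pola1 (12.1 CPM). It was also the highest for Grem1 (903 CPM), Fstl3 (35 CPM), Tgfb3 (234 CPM), Plin2 (61.3 CPM), Hspa5 (1398 CPM), Dnajb11 (188 CPM), Snai2 (69.1 CPM), Igf1 (79.1 CPM), Sox9 (192 CPM), Col2a1 (768 CPM), Sp7 (44.9 CPM) and Alpl (39.6 CPM). The same library was the lowest for Fgf18 (3.39 CPM), Adra2a (143 CPM), Slit2 (281 CPM), Nipal3 (3.04 CPM), Emx2os (1.55 CPM), Col11a1 (1435 CPM), Mef2c (91.6 CPM) and Mmp16 (25.2 CPM), and for Bhlhe40 (15.3 CPM), Egln1 (53.7 CPM), Wnt5a (107 CPM), Klf9 (175 CPM), Sgk1 (462 CPM), Nupr1 (15.8 CPM), Bst2 (14.8 CPM), Cxcl12 (103 CPM) and Igf2r (159 CPM). Among the other libraries, normoxic chondrocyte replicate 1 was the lowest for Hk2 (59.9 CPM), Pfkl (145 CPM), Fstl3 (82.7 CPM) and Ifit3 (0.52 CPM), normoxic chondrocyte replicate 2 was the lowest for Rfc4 (7.32 CPM), normoxic chondrocyte replicate 4 was the lowest for Spats2l (1.63 CPM), Ccnb1 (35.8 CPM) and Tgfb1 (91.5 CPM), normoxic chondrocyte replicate 4 was the highest for Tpm1 (855 CPM) and Gclc (62 CPM), normoxic osteoblast replicate 1 was the lowest for Igfbp3 (106 CPM), normoxic osteoblast replicate 3 was the highest for Hpgd (1.11 CPM). What sets replicate 4 of the normoxic osteoblast group apart was not tested.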

How the results depend on the processing

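The count of genes called in the difference, 5750, lay between 4871 and 6725 over all alternatives: 6194 with DESeq2, 5804 with limma-voom, 5781 and 5764 with library size or RLE scaling, 5248 with no filter, 5323 with at least 10 counts in every sample, 6184 with all 28 samples, and 4871 to 6725 leaving out 1 library. Genes with opposite responses numbered 392, 807 with replicates 1 to 3 only, and 232 to 774 leaving out 1 library. Genes called in chondrocyte cultures numbered 2649, and 1704 to 3859 leaving out 1 library. With at least 10 counts in every sample, which tests 12106 genes, 474 of them in place of 896 reached a log2 size of 1 there, and 2173 in place of 3411 did so in osteoblast cultures. The fit with the replicate block called 5614 in the difference. The numbers do not pair the samples. Of the 128 genes chosen by the naming rule and called in the difference, 0 changed direction in any alternative. A call was lost in 9 of 1136 values over the other settings and in 29 of 1792 values leaving out 1 library, all for Alpl, Bst2, Col11a1, Comp, Fgf18, Hif1an, Igf2r or Snai2. The cause was not tested. Some genes, such as Aldh1a3, Arhgap28 and Ifit3, had few counts in a group, and the part of depth in their values was not tested.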

Other observations

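Adipogenic genes moved in both directions with low oxygen in osteoblast cultures, where 8 rose and 4 fell, against 28.5% and 27.7% of all genes. Of 13 adipogenic genes tested of 20 listed, 7 had a higher and 0 a lower osteoblast response, against 20.1% and 17.7% of all genes, and 8 and 2 without replicate 4 of the normoxic osteoblast group. Pparg, the nuclear receptor that directs fat cell formation, was at 4.46, 5.21, 6.24 and 5.49 CPM in normoxic and 34.6, 36.9 and 36.4 CPM in hypoxic osteoblast cultures. Chondrocyte cultures held 7.93, 6.16, 5.78 and 8.44 CPM at 21% O2 and 8.46, 8.32 and 6.27 CPM at 0.5% O2. The osteoblast groups did not overlap and the chondrocyte groups did, with a difference of 2.63 (SE 0.22, edgeR adjusted p = 3.91e-07). Cebpb, a factor upstream of Pparg, and Plin2, a lipid droplet coat protein, had differences of 1.84 (SE 0.20, edgeR adjusted p = 8.09e-06) and 1.3 (SE 0.15, edgeR adjusted p = 8.42e-06). Dgat2, which completes triglyceride synthesis, had a difference of 3.37 (SE 0.40, edgeR adjusted p = 1.35e-05). The 8 adipocyte markers summed to 55.5 to 60 CPM in hypoxic osteoblast libraries and 9.01 to 18 CPM in the normoxic libraries of both cultures, with Adipoq and Lep at 0. That sum was carried by Pparg and Fabp4, while Cebpa had means of 2.27 CPM in normoxic and 0.669 CPM in hypoxic osteoblast cultures, and the part of these markers in the result was not tested.

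Amino acid and ATF4 stress genes gave 10 higher and 4 lower osteoblast responses of 24 tested (58.3% called, against 37.8% of all genes). The 4 lower are about the share of all genes (17.7%), and 2 were lower without hypoxic chondrocyte replicate 2 or 3. Slc7a11, the cystine transporter, rose in osteoblast cultures from 1.08 ± 0.116 (SD, n = 4) to 13.8 ± 3.35 CPM (n = 3) and had a difference of 3.12 (SE 0.27, edgeR adjusted p = 1.11e-06). Atf3, a stress-induced factor, and Slc1a4, a neutral amino acid transporter, had differences of 3.21 (SE 0.37, edgeR adjusted p = 1.31e-05) and 0.59 (SE 0.12, edgeR adjusted p = 0.000983). Nupr1, a stress protein, fell in osteoblast cultures from 25.1 ± 6.31 to 12.2 ± 0.684 CPM, with a difference of -1.23 (SE 0.26, edgeR adjusted p = 0.00177). NRF2 targets gave 5 higher and 5 lower of 20 tested (50% called, against 37.8% of all genes), 4 and 6 with library size as the only scaling, and 7 and 7 without replicate 4 of the normoxic osteoblast group. Gclc, the first enzyme of glutathione synthesis, rose in osteoblast cultures from 43.5 ± 5.47 to 152 ± 12.5 CPM, with a difference of 2.04 (SE 0.14, edgeR adjusted p = 6.28e-08). Srxn1, sulfiredoxin, and Tkt, transketolase, had differences of -0.81 (SE 0.14, edgeR adjusted p = 0.000447) and 0.74 (SE 0.14, edgeR adjusted p = 0.000596).

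Nuclear subunits of oxidative phosphorylation gave 6 higher and 9 lower osteoblast responses of 38 tested (39.5% called, against 37.8% of all genes), and 4 and 12 with library size as the only scaling. The 4 with the smallest p all had lower osteoblast responses. Ndufb8 and Ndufb3, of complex I, had differences of -0.81 (SE 0.14, edgeR adjusted p = 0.000345) and -0.97 (SE 0.17, edgeR adjusted p = 0.000416). Cox5b, of complex IV, and Sdhb, of complex II, had differences of -0.73 (SE 0.14, edgeR adjusted p = 0.000989) and -0.48 (SE 0.12, edgeR adjusted p = 0.00396).

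Secreted inflammatory factors gave 7 higher and 2 lower osteoblast responses of 14 tested of 23 listed, against 20.1% and 17.7% of all genes. Il11, a cytokine of the gp130 family, rose in chondrocyte cultures from 4.33 ± 2.28 to 27.8 ± 4.75 CPM and had a difference of -2.79 (SE 0.54, edgeR adjusted p = 0.0009). Cxcl12, a chemokine, fell in osteoblast cultures from 211 ± 72.4 to 70.1 ± 6.52 CPM, with a difference of -2.11 (SE 0.35, edgeR adjusted p = 0.000548). C3, the central complement protein, and Il1rl1, the receptor of interleukin 33, had differences of 4.08 (SE 0.71, edgeR adjusted p = 0.000666) and 3.27 (SE 0.36, edgeR adjusted p = 5.66e-06). Interferon-stimulated genes gave 3 higher and 2 lower of 25 tested (20% called, against 37.8% of all genes), with 4 lower without replicate 4 of either normoxic group. Ifit3 had 69 counts in the normoxic and 3 in the hypoxic chondrocyte group, a ratio of 17.6 after scaling (95% counting interval 5.77 to 87.4), and a difference of 4.00 (SE 0.69, edgeR adjusted p = 0.000327). Ifit2 had a difference of 1.26 (SE 0.25, edgeR adjusted p = 0.00111), H2-D1, a histocompatibility gene with close paralogs and so uncertain counts, of -0.78 (SE 0.16, edgeR adjusted p = 0.00116), and Bst2 of -1.17 (SE 0.32, edgeR adjusted p = 0.0102), the last not called with limma-voom.

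IGF system genes gave 2 higher and 2 lower osteoblast responses of 14 tested (28.6% called, against 37.8% of all genes), and 5 and 2 without replicate 4 of the normoxic osteoblast group. Igfbp3, a binding protein of the ligands, fell in osteoblast cultures from 112 ± 3.59 to 34.9 ± 5.97 CPM and rose in chondrocyte cultures from 7.78 ± 0.766 to 12.3 ± 1.74 CPM, with a difference of -2.34 (SE 0.17, edgeR adjusted p = 9.55e-08). Igf1, a ligand, had a difference of -1.86 (SE 0.23, edgeR adjusted p = 2.21e-05), and Igf2r, a clearance receptor, of 0.73 (SE 0.26, edgeR adjusted p = 0.0359), which lost its call with no filter and without any 1 hypoxic chondrocyte library, hypoxic osteoblast replicate 1 or 2 or any 1 of normoxic chondrocyte replicates 2 to 4 (edgeR adjusted p = 0.051 to 0.0887). Neural crest and craniofacial factors gave 2 higher and 3 lower of 23 tested (21.7% called, against 37.8% of all genes), and 8 and 6 without that replicate. Ets1 rose in osteoblast cultures from 16 ± 2.15 to 80.7 ± 1.13 CPM, with a difference of 2.19 (SE 0.13, edgeR adjusted p = 1.46e-08), and Tfap2a had a difference of -0.61 (SE 0.17, edgeR adjusted p = 0.0105).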
